A study of Homo sapiens with 6 samples.

Results

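SR proteins are splicing factors that combine RNA recognition motifs with a tail rich in arginine-serine dipeptides. They bind exonic enhancers and recruit the spliceosome to nearby splice sites, and phosphorylation of the tail by SRPK and CLK kinases controls where in the nucleus they sit and when they act. Several of them also travel to the cytoplasm with mature mRNA. Their genes carry ultraconserved poison exons and introns, and how these are spliced can expose the transcript to nonsense-mediated decay (NMD). SR protein levels are thus set in part by splicing itself. Sam68, the STAR family RNA-binding protein encoded by KHDRBS1, is known to bind the SRSF1 transcript and to influence the retention of an intron in its 3′UTR.

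The 10 SR protein genes described here are SRSF1, SRSF2, SRSF3, SRSF4, SRSF5, SRSF6, SRSF7, SRSF9, SRSF10 and SRSF11. They were chosen by gene symbol, among 74852 loci of the deposited table, and all 10 were among the 18849 loci that passed a minimum mean of 10 normalized reads and were tested. MDA-MB-231, a human triple-negative breast cancer (TNBC) cell line, received, in 2 rounds of transfection, either non-targeting siRNAs (si-CTRL, 3 libraries) or siRNAs that target SAM68 (si-SAM68, 3 libraries), each as a pool. The sample labels place the harvest 24 h after the last transfection, whereas the methods of the study give a longer interval. Silencing was transient and each pool held 4 siRNAs, and the labels do not say whether replicates were separate cultures, so that p-values measure the spread between these libraries, which may be technical. The values are normalized read counts, that is, reads on a locus divided by the size factor of the library, and where 3 values stand together they are those of replicates 1, 2 and 3 in that order. SE is the standard error of a log2 fold change.

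The perturbation is shown by the sense strand of the siRNAs of each pool, written 5′ to 3′. Capitals mark the bases that pair with positions 2 to 8 of the guide strand, the seed, which is the stretch through which an siRNA can also touch other mRNAs.
si-SAM68_1: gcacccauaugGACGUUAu
si-SAM68_2: gaaagagcgagUGCUGAUa
si-SAM68_3: uaugauggaugAUAUCUGu
si-SAM68_4: aaagaucucugUAUUGGGa
si-CTRL_1: ugguuuacaugUCGACUAa
si-CTRL_2: ugguuuacaugUUGUGUGa
si-CTRL_3: ugguuuacaugUUUUCUGa
si-CTRL_4: ugguuuacaugUUUUCCUa

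Each of the 4 SAM68 siRNAs had a full match within a coding exon of KHDRBS1, on the plus strand of GRCh38 (GENCODE v29): si-SAM68_1 in exon 9 of 9 (chr1:32042603-32042621), si-SAM68_2 in exon 2 (chr1:32030383-32030401), si-SAM68_3 in exon 5 (chr1:32036912-32036930) and si-SAM68_4 in exon 3 (chr1:32031595-32031613). No siRNA of either pool matched a transcript of the 10 SR protein genes in full. The longest run shared with any of them was 9 bases for each SAM68 siRNA.

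KHDRBS1 (chr1:32479295-32526460, hg19) was read first, as a check of the labels. Its normalized read count was 15660, 14483 and 14737 in the controls, against 583, 602 and 670 after silencing. The silenced libraries thus kept 4.13% of the si-CTRL mean, a log2 fold change of -4.60 (SE 0.083; limma over all loci, adjusted p = 2.13e-09). Each library held between 52625492 and 82568487 reads, and the fewest reads on any SR protein gene in any library were 2393 (SRSF4 in si-SAM68 replicate 3), a counting error of 2.04%. Of the markers of the line, VIM was at 138300 or above in every library, whereas ESR1, PGR, CDH1 and EPCAM were at 15.2 or below, and PGR was at 0 throughout. CAV1 and KRT18, 2 of the 5 markers listed as present, rose in si-SAM68 cells, by 0.62 and 0.35 on the log2 scale (adjusted p = 0.00101 and 0.0144, limma). For KRT18 the adjusted p-value was 0.0585, 0.0536 and 0.0674 when si-SAM68 replicate 1, 2 or 3 was left out. AXL was also higher in every silenced library, without passing the threshold (log2 fold change 0.27, adjusted p = 0.0969, limma). CD44 and VIM overlapped between the groups, at log2 fold changes of 0.17 and -0.14. The summed level of the 6 genes used for other cell types was between 228 and 249 in si-SAM68 libraries and between 324 and 419 in si-CTRL libraries, with CD3E at or near 0. Most of it was ACTA2, a smooth muscle actin also made by cultured cells, which fell by 0.70 on the log2 scale (adjusted p = 0.0183, limma; 0.0566, 0.0766 and 0.0578 without si-SAM68 replicate 1, 2 or 3). The locus of the rRNA precursor took 15.1% of the reads of si-SAM68 replicate 2, against between 1.83% and 3.17% elsewhere. The 10 tested loci listed as RNAs without a poly(A) tail summed to 14805 in that library and to between 3530 and 5476 in the others. All 10 had a log2 fold change above zero, with a median of 1.03, 5 had an unadjusted p-value under 0.05 (27.0% of all loci did) and 4 also passed the fold threshold (7.67%). By adjusted p-value 1 of these 10 (HIST1H1C, log2 fold change 0.64) was called as higher, against 4.47% of all loci, or 2 with the replicate number as a block. RMRP had 105, 294 and 329 normalized reads in the controls and 214, 4694 and 136 after silencing. HIST1H4C had 41.2, 48.4 and 42.8, then 43.3, 438 and 40.2. HIST1H1C was higher in every silenced library than in every control. It was still called without si-SAM68 replicate 2 (adjusted p = 0.0376, limma). The part of these differences in the values below was not tested, except where a value without that library is given.

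None of the 10 SR protein genes changed past the thresholds. By limma with Benjamini-Hochberg adjustment over all loci, 0 of 10 had an adjusted p-value under 0.05, where 10.7% of all loci tested did, 4.47% being higher and 6.23% lower. The smallest adjusted p-value was 0.235, for SRSF4. None had an unadjusted p-value under 0.05 either, against 27.0% of all loci, and none passed the thresholds of the study (unadjusted p-value ≤0.05 and fold change ≥1.5), against 7.67% of all loci. Both shares come from the limma fit over the loci tested here, and not from the study's own test. On the recovered reads, edgeR also gave 0 of 10 at either p-value, and DESeq2 gave 0 at the adjusted and 1 at the unadjusted p-value (SRSF4, unadjusted p = 0.0492). The log2 fold changes ran from -0.24 to 0.13, 7 of them below and 3 above zero, with a median of -0.04 where the median of all loci was 0.01. A p-value that misses the threshold does not show that the levels were equal, and the intervals of the differences are therefore given with each gene. The 95% interval of each of the 10 lay within a fold change of 1.5 in either direction. The lower bound for SRSF4 passed that line when si-CTRL replicate 2, si-CTRL replicate 3 or si-SAM68 replicate 3 was left out, reaching -0.59, -0.61 and -0.59 on the log2 scale. In bulk RNA, fewer cells expressing a gene and less RNA per cell cannot be told apart.

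**Figure D1:**
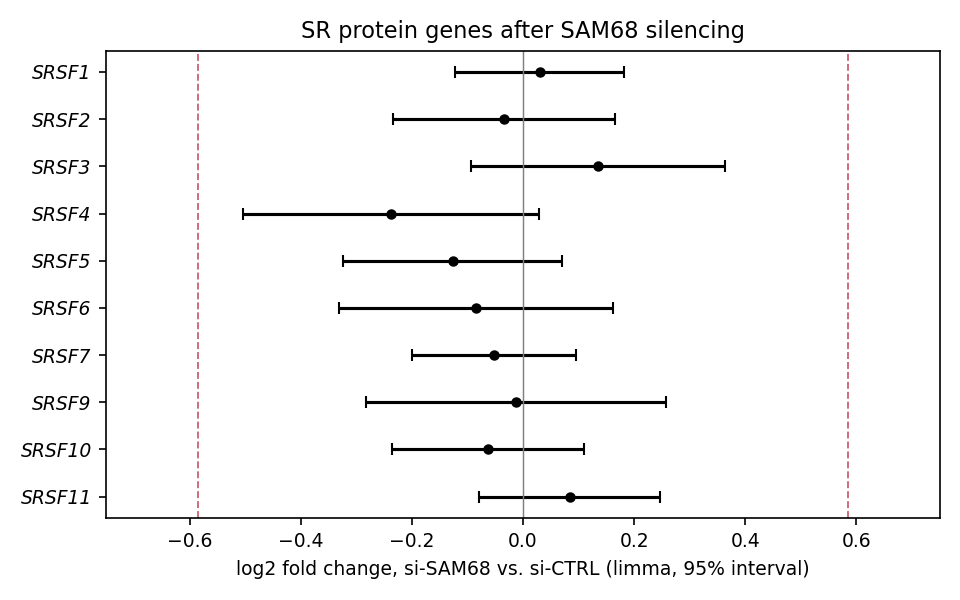
Log2 fold change of each SR protein gene in si-SAM68 vs. si-CTRL cells (points, horizontal axis) with its 95% interval from limma (bars), 3 libraries per group; dashed lines mark a fold change of 1.5 in each direction. All 10 intervals cross zero and lie between the dashed lines, with SRSF4 lowest at -0.24 and SRSF3 highest at 0.13.

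SRSF1, the prototype SR protein and a known proto-oncogene, lies at chr17:56078282-56084707. Its normalized read count was 24064, 24922 and 23943 in the control libraries and 24125, 24895 and 25436 in the silenced ones. The groups overlapped, the lowest library being a control and the highest a silenced one. The log2 fold change was 0.03 (SE 0.068, adjusted p = 0.819, limma; two-sided exact permutation test, p = 0.3, where 3 libraries against 3 allow no p below 0.1). The 95% interval of the difference ran from -8.08% to 13.4%. Over all alternatives of analysis the log2 fold change of SRSF1 stayed between -0.01 and 0.05. The count joins every transcript of the locus, coding or not. Whether the share with the retained 3′UTR intron differed was not analysed here.

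SRSF9 (chr12:120899471-120907558) encodes the closest relative of SRSF1. It had normalized read counts of 11423, 16005 and 15829 in the controls. After silencing the counts were 14381, 13707 and 14301. The silenced libraries lay close together between a low si-CTRL replicate 1 and the other si-CTRL libraries, and the log2 fold change was -0.01 (SE 0.121, adjusted p = 0.962, limma), with a 95% interval from -17.8% to 19.6%. Without si-CTRL replicate 1 it was -0.17, with an unadjusted p-value of 0.0124 and an adjusted p-value of 0.0682 from limma. Without si-CTRL replicate 2 or 3 it was 0.07 and 0.06, so that the sign turned with the libraries used. The locus of GATC overlaps that of SRSF9 by 2086 bases and had 18.8% of its level, and reads of the shared stretch may have been counted for either.

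SRSF4, SRSF5 and SRSF6 are close relatives with paired RNA recognition motifs and long arginine-serine tails. SRSF4 (chr1:29474250-29508637) was the member farthest from the controls. Its normalized read count was 3759, 2854 and 2680 in the control libraries and 2598, 2528 and 2673 in the silenced ones. All silenced libraries were lower than all controls, although si-CTRL replicate 3 and si-SAM68 replicate 3 nearly met. The log2 fold change was -0.24 (SE 0.120, unadjusted p = 0.0755, adjusted p = 0.235, limma), with a 95% interval from -29.5% to 2.06%. Without si-CTRL replicate 1 the log2 fold change was -0.09, and without si-CTRL replicate 3 it was -0.33 (unadjusted p = 0.0223, adjusted p = 0.136, limma).

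SRSF5 (chr14:70193616-70238722), which responds quickly to growth signals in several cell types, had normalized read counts of 18931, 15244 and 17230 in the controls. After silencing the counts were 15572, 15207 and 16143. The silenced libraries sat at the low end of the controls and overlapped them. The log2 fold change was -0.13 (SE 0.088, adjusted p = 0.391, limma; 95% interval -20.1% to 5.01%), and without si-CTRL replicate 2 it was -0.21 (unadjusted p = 0.0456, adjusted p = 0.175). Without si-CTRL replicate 1 it was -0.05. SRSF6 (chr20:42086504-42092242), a regulator of epithelial splicing programs, had 8003, 5748 and 6626 normalized reads in the controls. After silencing it had 6328, 6265 and 6441. The silenced libraries fell inside the range of the controls, at a log2 fold change of -0.09 (SE 0.110, adjusted p = 0.664, limma; 95% interval -20.5% to 11.8%). It was 0.04 without si-CTRL replicate 1 and -0.20 without si-CTRL replicate 2, so that its sign rested on si-CTRL replicate 1.

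SRSF2, SRSF3 and SRSF7 carry a single RNA recognition motif. SRSF2, which is recurrently mutated in myeloid neoplasms, was counted on a locus (chr17:74730199-74733493) that joins it with the microRNA gene MIR636. That locus had 26228, 30215 and 32088 normalized reads in the control libraries and 28709, 27361 and 30162 in the silenced ones. The controls spanned the silenced libraries, with si-CTRL replicate 1 lowest, and the log2 fold change was -0.03 (SE 0.089, adjusted p = 0.847, limma; 95% interval -14.9% to 12.1%). Without si-CTRL replicate 1 it was -0.12 and without si-CTRL replicate 3 it was 0.03. The neighbour MFSD11 overlaps it by 847 bases, at 5.04% of its level.

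SRSF3 (chr6:36562090-36572244), the smallest SR protein and an adaptor for mRNA export, took more reads than any other member. It had 38694, 48010 and 48768 normalized reads in the controls. After silencing it had 48639, 46394 and 53154. Only si-CTRL replicate 1 was clearly apart, below every other library. The log2 fold change was 0.13 (SE 0.102, adjusted p = 0.432, limma), with a 95% interval from -6.28% to 28.6%. Without si-CTRL replicate 1 it was 0.03. SRSF7 (chr2:38970741-38978636), an export adaptor with a zinc knuckle, had 9620, 9924 and 9815 normalized reads in the control libraries and 9564, 9352 and 9401 in the silenced ones. All silenced libraries were lower than all controls, by a log2 fold change of only -0.05 (SE 0.066, adjusted p = 0.657, limma; 95% interval -12.9% to 6.87%).

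SRSF10 and SRSF11 stand apart from the classical SR proteins. SRSF10 (chr1:24290837-24307417), which acts as a splicing repressor when it is dephosphorylated, had 13137, 12441 and 12712 normalized reads in the controls. After silencing it had 11865, 11557 and 13280. The highest library of all was the silenced replicate 3, above each control, and the lowest was silenced replicate 2, at a log2 fold change of -0.06 (SE 0.077, adjusted p = 0.641, limma; 95% interval -15.1% to 7.86%). SRSF11 (chr1:70671365-70718730), known for a role in neuronal microexons, had 3695, 3420 and 3686 normalized reads in the control libraries and 3787, 3775 and 3877 in the silenced ones. All silenced libraries were higher than all controls, with a log2 fold change of 0.08 (SE 0.073, adjusted p = 0.499, limma; 95% interval -5.35% to 18.7%). Groups that did not overlap were thus found for 3 of the 10 genes (SRSF4, SRSF7 and SRSF11), against 33.9% of all loci tested, a share near the background.

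**Figure D2:**
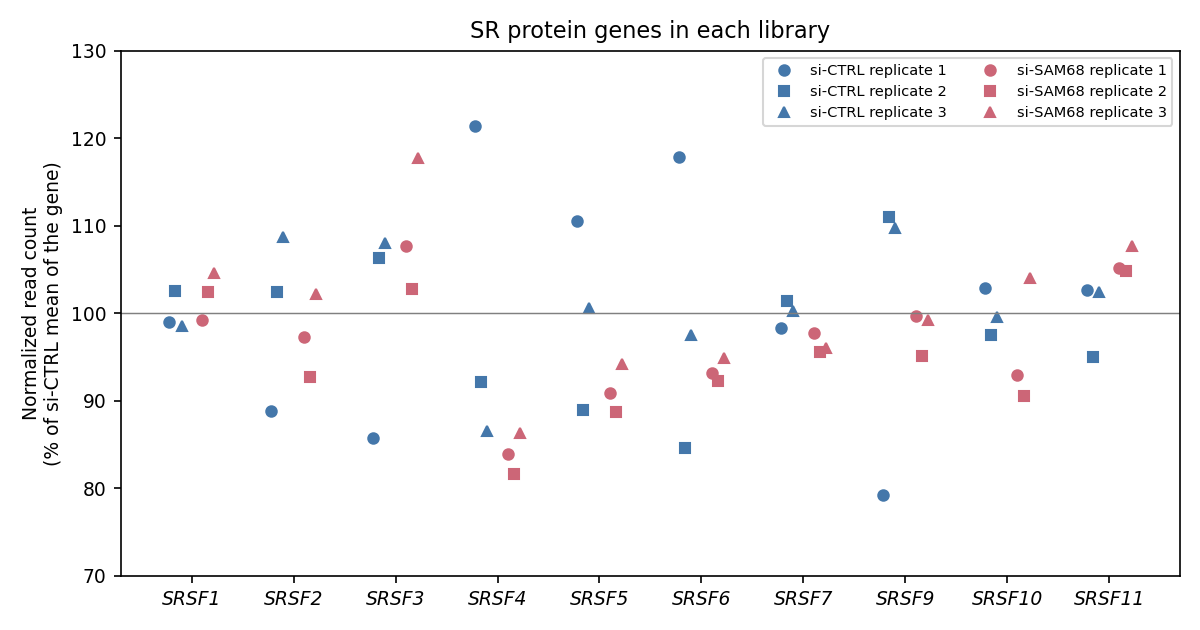
Normalized read count of each SR protein gene in each library, as a percentage of the mean of that gene over the 3 si-CTRL libraries (vertical axis); blue points are si-CTRL, red points si-SAM68, and the marker shape gives the replicate. The si-CTRL replicate 1 points (blue circles) lie highest in SRSF4, SRSF5 and SRSF6 and lowest in SRSF2, SRSF3 and SRSF9, while the red points of each gene stay within a factor of 1.15.

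Like most loci tested, most SR protein genes varied more among the controls than among the silenced libraries. The coefficient of variation was higher in si-CTRL than in si-SAM68 for 8 of 10 members, and over all loci tested this held for 62.7%. Whether the family differs from that share was not tested. In SRSF6 it was 16.7% in si-CTRL and 1.40% in si-SAM68, and in SRSF4 18.7% and 2.79%. SRSF1 and SRSF10 went the other way, with 2.20% and 2.75% in si-CTRL and 2.65% and 7.51% in si-SAM68. For 7 of 10 members, the si-CTRL library farthest from the group mean on the log2 scale was replicate 1, and the median distance of the members there was 0.16. Over the 4539 loci at least as abundant as the least abundant member, the median distance of this library was 0.12, and in the other 5 libraries it was between 0.038 and 0.067. In si-SAM68 cells, replicate 2 was the lowest of the group for 9 members and replicate 3 the highest for 8. These ranks were not counted over all loci, so that an offset of a whole library and a trait of the family cannot be told apart. Scaled to the reads on all loci, the 10 genes together held 2395, 2596 and 2630 CPM in the controls and 2510, 2120 and 2631 CPM after silencing. With the rRNA precursor locus left out of the total, si-SAM68 replicate 2 rose to 2498, inside the range of the other libraries.

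Of the normalized reads on the 10 genes, SRSF3 took 27.0% ± 2.2 (SD, n = 3) in controls and 29.5% ± 0.80 after silencing, with every silenced library (28.8% to 30.4%) above every control (24.6% to 28.4%). The shares of the other 9 overlapped between the groups, and so did the normalized read counts of SRSF3. In level, 33.9% of all loci tested had groups that did not overlap, and no such background was computed for shares. SRSF2 took 17.7% ± 0.95 and 17.2% ± 0.18, and SRSF1 took 14.6% ± 0.74 and 14.9% ± 0.52. SRSF4 had the smallest share, 1.87% ± 0.45 in controls and 1.56% ± 0.024 after silencing. These shares depend on transcript length, so that levels were compared between genes per kilobase of the principal coding transcript in GENCODE v29. On that scale SRSF1 was highest, between 15825 and 16811 normalized reads per kilobase over the 6 libraries, and its range lay above that of every other member. SRSF9 (9512 to 13327), SRSF3 (9165 to 12590) and SRSF2 (9091 to 11122) followed, with overlapping ranges. SRSF10, SRSF5 and SRSF7 came next, at means of 7663, 5822 and 3862, without overlap between neighbours. SRSF6 (1329 to 1850) and SRSF4 (1059 to 1575) overlapped, and SRSF11 was lowest, between 904 and 1025. The order rests on the length chosen. With the longest coding transcript, 3117 in place of 1513 bases for SRSF1, SRSF1 was the fourth, behind SRSF9, SRSF3 and SRSF2, and SRSF10 (3487 in place of 1631 bases) fell to a mean of 3584, below SRSF5 and SRSF7.

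**Figure D3:**
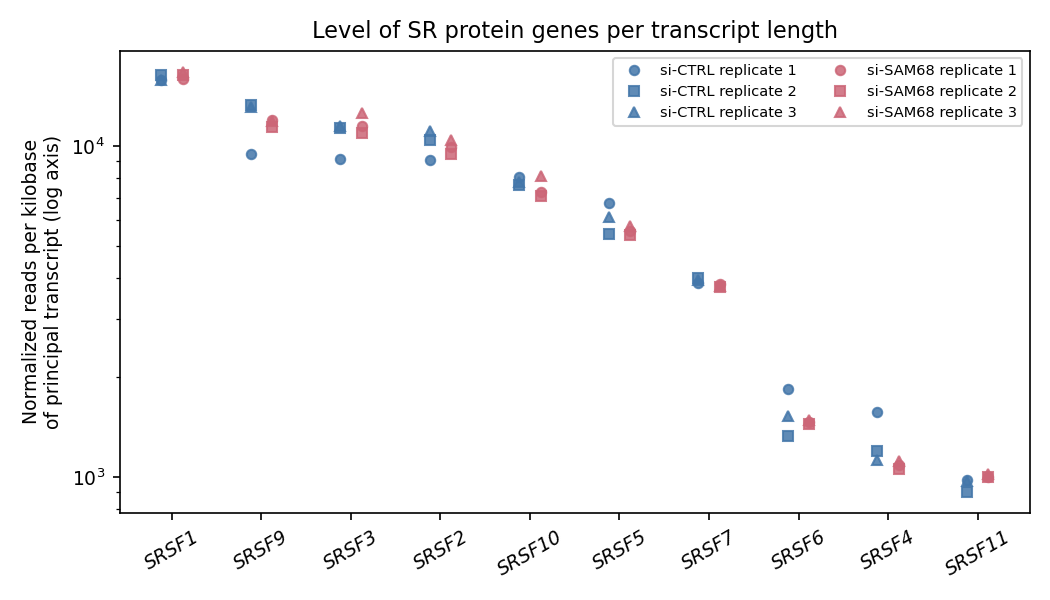
Level of each SR protein gene per library, in normalized reads per kilobase of the principal transcript (vertical log axis), ordered by the mean over the 6 libraries; blue is si-CTRL, red si-SAM68. The blue and red points of a gene lie close together compared with the distance from SRSF1, at a mean of 16235, to SRSF11, at 979.5.

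The loci hold many transcripts that the count cannot separate. GENCODE v29 lists 107 transcripts for the 10 genes, of which 39 are coding, 22 are marked as targets of NMD and 28 as retaining an intron. Each of the 10 genes has at least 1 transcript marked for NMD, SRSF7 the most with 6, and SRSF5 has the most transcripts marked as retaining an intron, with 8. For SRSF1 the annotation gives 4 coding transcripts, 3 marked for NMD and 1 with a retained intron. The 10 genes that carry out NMD, in a list of UPF and SMG factors, had 0 members with an adjusted p-value under 0.05 by limma, edgeR or DESeq2, 0 with an unadjusted p-value under 0.05 by limma, and a median log2 fold change of -0.03. Over all loci 10.7%, 10.7% and 14.8% had an adjusted p-value under 0.05 by limma, edgeR and DESeq2, and 27.0% an unadjusted one by limma. The member with the largest value was the kinase SMG1, at 0.32 (adjusted p = 0.198, limma). With the replicate number as a block it reached an adjusted p-value of 0.0476, and without si-CTRL replicate 2 of 0.0420 (limma).

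Letters that pair with the seed of a SAM68 guide were found in the longest annotated 3′UTR of 3 members. The SAM68 site TGCTGAT was in SRSF2 and in 2342 of 19560 genes, and ATATCTG was in SRSF1 and SRSF6 and in 11.4% of genes. The sites GACGTTA and TATTGGG, in 1.27% and 7.79% of genes, were in no member. Only the mRNA strand was searched, and a match describes the letters and no binding. The log2 fold changes of SRSF1, SRSF2 and SRSF6 ran from -0.09 to 0.03, and those of the other 7 members from -0.24 to 0.13. Sites of control guides are held by SRSF1, SRSF2 and SRSF6, and among the other 7 by SRSF3, SRSF5, SRSF7, SRSF10 and SRSF11. An effect of the seeds on the levels was not tested. The control sites are more frequent, with TTTTCCT in 6 members and in 30.6% of genes, TTTTCTG in 5 members and 29.1%, TTGTGTG in 3 members and 18.1%, and TCGACTA in no member and 0.557%.

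Among the enzymes and carriers that act on SR proteins, none passed the adjusted threshold by limma or edgeR, and 1 (NXF1) did by DESeq2, where 10.7%, 10.7% and 14.8% of all loci did. The list of 12 holds the kinases SRPK1, SRPK2, SRPK3, CLK1, CLK2, CLK3, CLK4, DYRK1A and PRPF4B, the phosphatase regulator PPP1R8, the importin TNPO3 and the export receptor NXF1. SRPK3 was counted on a locus that joins it with PLXNB3, so that its value may be that of either gene. The list had 1 member with an unadjusted p-value under 0.05 by limma, also NXF1, against 27.0% of all loci, and a median log2 fold change of -0.12. NXF1, which takes mRNA through the nuclear pore and binds SR proteins as adaptors, was counted on a locus that joins it with MIR6514. It had 3641, 2814 and 2901 normalized reads in the control libraries and 2508, 2382 and 2394 in the silenced ones, so that the groups did not overlap. The log2 fold change was -0.35 (SE 0.104, adjusted p = 0.0587, limma), and the adjusted p-value was 0.0157 with DESeq2 and 0.0575 with edgeR. Without si-CTRL replicate 1 or 2 it was 0.0371 and 0.0496 (limma). SRPK1, the main cytoplasmic SR protein kinase, had a log2 fold change of -0.09, and CLK1, the best known nuclear one, of 0.03 (adjusted p = 0.572 and 0.840, limma).

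Of 25 SR-related factors, 24 were tested and 1 changed, against 10.7% of all loci. The list also holds SRSF8 and SRSF12, which carry SRSF symbols but are not among the 10 members. SRSF8 had a log2 fold change of 0.16 (adjusted p = 0.559, limma). SRSF12 was not tested, with at most 2.23 normalized reads in any library. LUC7L2, a U1 snRNP-associated factor counted on a locus that joins it with FMC1 and their readthrough, fell in si-SAM68 cells. Its locus (chr7:139025105-139108205) had 7223, 4865 and 5179 normalized reads in the control libraries and 3675, 3667 and 3928 in the silenced ones. Every silenced library was below every control, and the log2 fold change was -0.59 (SE 0.133, adjusted p = 0.0217, limma). Without si-SAM68 replicate 1, 2 or 3 the adjusted p-value was 0.0833, 0.0751 and 0.0833, and without si-CTRL replicate 1 the log2 fold change was -0.42 (adjusted p = 0.00225). TRA2A and TRA2B, sequence-specific activators that work with SR proteins, had log2 fold changes of -0.20 and -0.08 (adjusted p = 0.114 and 0.513, limma). The median of the list was -0.10.

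Of 9 genes known as splicing targets of SRSF1, 1 changed in level, a share near the 10.7% of all loci. MKNK2, a kinase that phosphorylates the cap-binding protein EIF4E, had 2427, 2826 and 2598 normalized reads in the control libraries and 3718, 3345 and 3194 in the silenced ones. It rose, with no overlap between the groups, by a log2 fold change of 0.39 (SE 0.091, adjusted p = 0.0265, limma). The adjusted p-value was above 0.05 without si-CTRL replicate 3 (0.0735). It was also above 0.05 when si-SAM68 replicate 1, 2 or 3 was left out (0.0950, 0.0881 and 0.0671), and 2 of the 9 genes were called without si-CTRL replicate 1, where 15.1% of all loci were. MST1R, BIN1, RPS6KB1, BCL2L11, BCL2L1, CASP9, MCL1 and CD44 did not pass the test, with log2 fold changes between -0.08 and 0.30. The median of the list was 0.12, where that of all loci was 0.01. These are total levels of the genes, and the isoforms that SRSF1 controls were not measured by them.

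**Figure D4:**
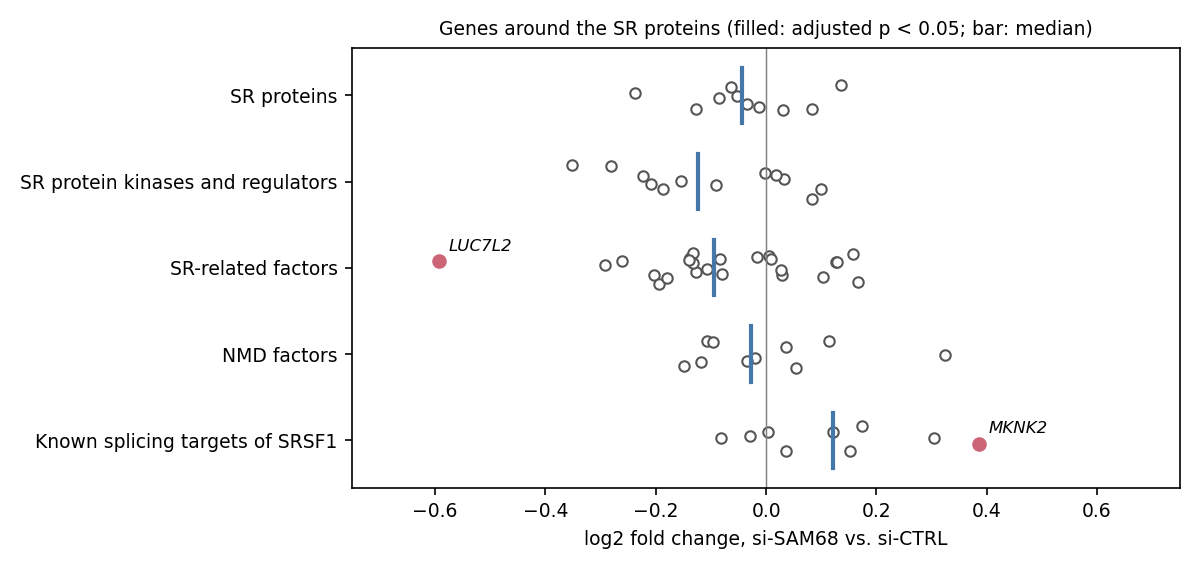
Log2 fold change in si-SAM68 vs. si-CTRL cells (horizontal axis) of every tested gene in the SR protein family and in 4 lists of genes around it (rows); filled red points have an adjusted p-value under 0.05 from limma and the blue bar is the median of the row. LUC7L2 at -0.59 and MKNK2 at 0.39 are the filled points, and the SR proteins fill the narrow range from -0.24 to 0.13.

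The genes whose values over the 6 libraries were most like those of SRSF1, among 11393 loci with a single symbol and a mean of at least 100, were TANGO6, LEAP2, HLTF, EML5 and PCCA. Their Pearson correlations with SRSF1 on the log2 scale were between 0.949 and 0.967 over the 6 libraries. All genes of a library share its depth and scaling. These genes were picked as the highest of 11393 loci on the same 6 values, and 4 loci were above 0.95. How high the top of so many loci would reach by chance was not computed. Shared regulation with SRSF1 was not tested. The correlations of 8 other SR protein genes with SRSF1, SRSF2 being left out as a joined locus, ran from -0.56 (SRSF5) to 0.53 (SRSF3). These 8 genes were not picked by their correlation, so that the ranges cannot be compared.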

How the data were processed

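Libraries of polyadenylated RNA were sequenced by the authors. The submitters' processing notes name STAR 2.4.0, SAMtools, Picard, FastQC, DESeq2 and hg19. The deposited values are a signal, reads counted per FAST DB locus and scaled by library size factors from DESeq2. Dividing by the smallest step gave whole reads for 100% of values (within 0.01) in every library, including si-SAM68 replicate 1, whose step is 1.01. Strand use in counting is not given in the sources used here.

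limma 3.58.1 (R 4.3.3; eBayes with trend) was fitted to log2(value + 1) over all loci with a mean of at least 10. Adjusted p-values are Benjamini-Hochberg values. This scale slightly understates changes of low genes. edgeR 4.0.16 and DESeq2 1.42.0 were alternatives on the recovered reads, besides other pseudocounts, filters, scalings and variance models, each library left out, and the replicate block. The programs were checked on simulated counts. Loci were read in hg19, and transcripts from GENCODE v29 (GRCh38), used for sequence, length and siRNA positions.

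Libraries of the same replicate number deviated together from their group means, at correlations of 0.105, 0.231 and 0.125 over loci. For unlike numbers the correlations were between -0.125 and 0.00687. Deviations within a group cancel, so that the values for unlike numbers are not independent of the others. Libraries of the same number were taken as pairs in the replicate block, and the pairing itself was not tested.

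The members and lists were chosen with earlier results of these data known. Genes named are KHDRBS1, the 10 members, list members that passed or were not tested, and the 5 genes most like SRSF1. Other list members, NXF1, SMG1, SRPK1, CLK1, TRA2A and TRA2B among them, were named after their values were seen. RN7SK and RN7SL1 of the list without poly(A) tails were not analysed here. A marker of another cell type is not reported here and was left out of its list.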

Additional observations from a re-analysis of the deposited data

How the results depend on the processing

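The counts of SR protein genes past the adjusted threshold and past the p-value and fold thresholds were 0 in the reported analysis and in each of 18 alternatives, including limma and edgeR with the replicate block, the latter chosen after seeing the data. The smallest adjusted p-value of any member over these alternatives was 0.0682, for SRSF9 without si-CTRL replicate 1. KHDRBS1 stayed between -4.66 and -4.56. With the replicate block the number of loci called went from 2017 to 1697, and among the SR protein genes and KHDRBS1, LUC7L2, MKNK2, NXF1, SMG1, ACTA2, HIST1H1C, CAV1 and KRT18, SMG1 was the call that changed. The summed level of the members differed by -4.71% (si-SAM68 minus si-CTRL) in CPM, and by 0.353% as a sum of normalized read counts, a unit chosen after seeing the data in which the rRNA reads of si-SAM68 replicate 2 do not enter. The calls of LUC7L2, MKNK2, ACTA2, HIST1H1C and KRT18 were lost without a trend in the variance (adjusted p = 0.0955, 0.0892, 0.0510, 0.0564 and 0.0610, limma). NXF1 was called with a minimum mean of 50, quantile normalization, DESeq2, and without si-CTRL replicate 1 or 2 (adjusted p = 0.0492, 0.0445, 0.0157, 0.0371 and 0.0496). With 3 libraries per group, the 95% intervals printed with each gene give the precision of its fold change.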
